A study of Homo sapiens with 16 samples.

Results

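PARP9, PARP10, PARP12 and PARP14 were chosen by name from the count table as PARP family members linked to interferon or to mono-ADP-ribosylation. DTX3L, the partner protein of PARP9, was added. The choice is not a full list of such members, and the other PARP family genes compared below are not a contrast without these traits. The chosen genes are 5 of the 59428 genes in the table, and 29329 genes of the table had at least 1 count. RNA was measured by 3' mRNA sequencing in 16 libraries of the ovarian carcinoma cell lines OVCAR3, which carries an intact BRCA1 gene, and UWB1.289, in which BRCA1 is disrupted by a deleterious mutation. Each line received the PARP inhibitor olaparib, dissolved in DMSO, or DMSO alone as the vehicle, for 96 h, at 7.5 µM olaparib in OVCAR3 and 3.5 µM in UWB1.289, with 4 libraries in each of 4 groups. OVCAR3 was grown in RPMI1640 with 20% FBS and bovine insulin, and UWB1.289 in a mixture of MEGM and RPMI1640 with 3% FBS, so that BRCA1 status, dose, medium and all other differences between the lines cannot be told apart. Each genotype is represented by 1 cell line.

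PARP proteins transfer ADP-ribose from NAD+ to proteins and nucleic acids. PARP1 and PARP2, the targets of olaparib, build chains of ADP-ribose at DNA breaks, whereas most other family members attach single units. Type I interferons signal through the receptor chains IFNAR1 and IFNAR2 and the kinases JAK1 and TYK2 to a transcription factor complex that includes STAT2 and IRF9 and binds the interferon-stimulated response element, while interferon gamma acts through the gamma-activated site. PARP9, PARP10, PARP12, PARP14 and DTX3L are known targets of these pathways in many cell types and have been studied in antiviral defence.

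The promoters are shown here because all members but PARP10, whose promoter was not analysed here, carry the same short interferon motif close to a start of transcription. RefSeq promoter windows (GRCh38.p14), which span 250 bases before and 50 bases after each start, were searched on both strands for the core of the interferon-stimulated response element, written as GAAANNGAAA, and for the gamma-activated site, TTCNNNGAA. The first motif was found in 3.57% and the second in 7.66% of the 35116 windows of 27305 genes. In the sequences below the matches are in capitals.
PARP9 and DTX3L, chr3:122564301-122564350, plus strand: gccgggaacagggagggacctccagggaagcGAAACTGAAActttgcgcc
PARP14, chr3:122680739-122680838, plus strand: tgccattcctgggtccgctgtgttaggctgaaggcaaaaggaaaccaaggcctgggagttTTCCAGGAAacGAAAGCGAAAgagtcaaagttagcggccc
PARP12, chr7:140062952-140063051, minus strand: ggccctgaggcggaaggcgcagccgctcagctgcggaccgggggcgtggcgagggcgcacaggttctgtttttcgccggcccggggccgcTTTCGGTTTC

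PARP9 and DTX3L lie head to head and share a single match. With the first transcribed base counted as 1 and the base before it as -1, the match covers positions -6 to 4 of DTX3L, on the strand of that gene. The same bases lie at -41 to -32 of a PARP9 start at position 122564300, on the other strand, while the window of a further PARP9 start at position 122564784 has no match. In PARP14 the interferon-stimulated response element core is at -29 to -20 and the gamma-activated site, the only such match among the windows of these genes, at -40 to -32. In PARP12 the core is at -10 to -1 on the opposite strand. A match describes the letters in the window, and binding of a factor was not measured.

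Total counts were between 5599571 and 7730228 per library. Levels are given as counts per 1000000 counts of the library (CPM), scaled by TMM factors over all 16 libraries. Of 10 epithelial and serous carcinoma markers, 10 had at least 10 counts in every library of the OVCAR3 groups and 9 in those of UWB1.289, where WT1 was at 0 to 3 counts per library. Of 10 leukocyte markers, 6 in UWB1.289 and 7 in OVCAR3 were at no more than 3 counts in any library of a group. MS4A1 and NKG7 had 0 counts in every library and CD3E at most 1, whereas PTPRC and CD14 had at least 10 counts in every UWB1.289 library. The summed leukocyte markers came to 8.71 to 11.9 CPM in UWB1.289 on DMSO and 14.6 to 20.7 CPM on olaparib. This was a rise in the same direction as the results below. Mean CD14 rose there from 3.17 to 7.71 CPM, with PTPRC, CD4, CD68 and ITGAM also higher and CD8A and LYZ lower. The sums in OVCAR3 were 1.75 to 2.48 CPM on DMSO and 2.33 to 2.60 CPM on olaparib. Means of CD4, CD8A and CD68 were higher on olaparib in that line, and those of PTPRC, CD3E, CD14 and LYZ lower. The summed epithelial markers were lower on olaparib in both lines, at 8274 to 8877 CPM on DMSO and 6612 to 8054 CPM on olaparib in UWB1.289 and at 5089 to 5409 and 3212 to 3589 CPM in OVCAR3. In UWB1.289 the mean of KRT18 fell from 4203 to 3180 CPM, and KRT7, KRT8, KRT19 and CLDN4 also had lower means on olaparib. EPCAM, CDH1, PAX8, WT1 and MUC16 had higher means there. In OVCAR3 all of these markers but KRT7 had lower means. Summed fibroblast and endothelial markers were at 49.7 to 72.5 CPM on DMSO and 34.0 to 41.3 CPM on olaparib in UWB1.289, and at 24.5 to 31.3 and 33.9 to 40.6 CPM in OVCAR3. In UWB1.289 the mean of COL1A2 fell from 48.5 to 23.6 CPM, with CDH5 and KDR also lower and COL1A1, PDGFRB, PECAM1 and VWF higher. In OVCAR3 the mean of COL1A1 rose from 24.4 to 36.1 CPM, with PECAM1 and KDR also higher. COL1A2, DCN, PDGFRB, VWF and CDH5 had lower means there. The part of these 3 marker lists in the results was not tested. In a bulk library, a change in every cell and a change in the share of cells that express a gene cannot be told apart.

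First, the effect of olaparib on these genes was assessed in the BRCA1-mutated line. All 5 genes were upregulated in UWB1.289, by 2.87-fold to 4.52-fold, and in each of them the lowest olaparib library was above the highest DMSO library. Here and below, a gene was called differentially expressed if its adjusted p was under 0.1, its level changed over 2-fold and its normalized count averaged more than 10. This call was made for higher expression in 1.93% of the 12748 genes tested, an adjusted p below 0.1 with a higher level by 7.77%, and 7.90% of genes had higher olaparib libraries without overlap. The median log2 fold change of the 5 genes was 1.92 beside -0.0044 over all genes tested.

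**Figure D1:**
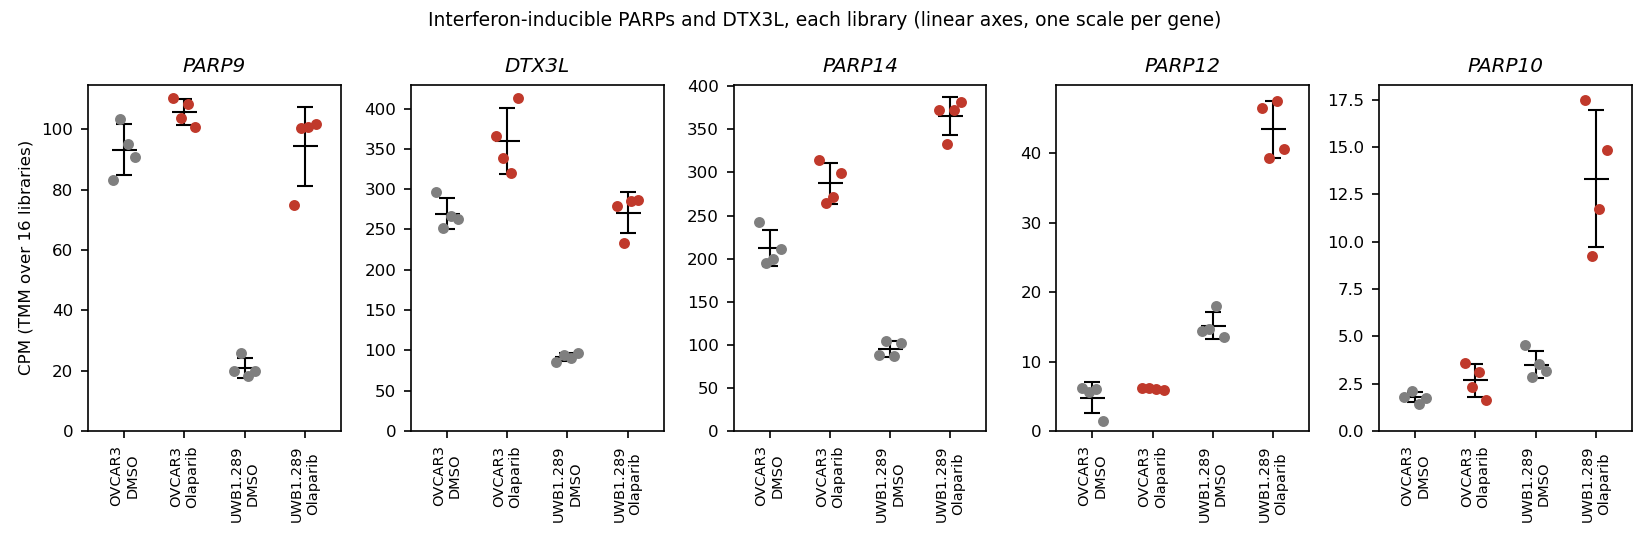
Levels of PARP9, DTX3L, PARP14, PARP12 and PARP10 in CPM (linear axes from 0, 1 scale per gene) in each of the 16 libraries, by cell line and treatment. Points are libraries, and black marks are group means with the SD. In every gene the 4 olaparib libraries of UWB1.289 lie above the 4 DMSO libraries of that line, whereas in OVCAR3 the groups are separated for PARP14 and DTX3L.

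PARP9 has ADP-ribose binding macrodomains and forms a complex with DTX3L. On DMSO, its level in UWB1.289 was 19.9, 25.9, 18.4 and 19.8 CPM in replicates 1 to 4 (21.0 ± 3.33, SD, n = 4), from 115 to 155 counts per library. On olaparib it was 74.8, 101, 101 and 102 CPM (94.4 ± 13.1, SD, n = 4). Replicate 1 of the olaparib group was the lowest of the 4 and still above every DMSO library. The log2 fold change was 2.17 (SE 0.126, 95% interval 1.91 to 2.44, edgeR adjusted p = 2.12e-11), the largest of the 5 estimates, and 2.27 when that library was left out.

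DTX3L is an E3 ubiquitin ligase of the Deltex family. Its level in UWB1.289 was 85.2, 94.4, 89.9 and 96.6 CPM on DMSO (91.5 ± 5.10, SD, n = 4). With olaparib the values were 279, 233, 285 and 286 CPM (271 ± 25.5, SD, n = 4). Replicate 2 lay below the other olaparib libraries, and the groups did not overlap. The log2 fold change was 1.57 (SE 0.0864, 95% interval 1.39 to 1.75, edgeR adjusted p = 1.09e-11).

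PARP14 is a mono-ADP-ribosyltransferase with macrodomains. The DMSO libraries of UWB1.289 had 87.6, 104, 86.5 and 102 CPM (95.1 ± 9.39, SD, n = 4), and the olaparib libraries had 372, 333, 373 and 382 CPM (365 ± 21.9, SD, n = 4). The olaparib values lay close together, with replicate 2 the lowest as for DTX3L. PARP14 thus had a log2 fold change of 1.94 (SE 0.0863, 95% interval 1.76 to 2.12, edgeR adjusted p = 2.39e-13).

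PARP12 is a mono-ADP-ribosyltransferase with CCCH zinc fingers that bind RNA. It was counted at 14.5, 14.7, 18 and 13.6 CPM on DMSO (15.2 ± 1.95, SD, n = 4) and 46.6, 39.3, 47.5 and 40.6 CPM on olaparib (43.5 ± 4.13, SD, n = 4) in UWB1.289. No olaparib library came near the DMSO range. PARP12 had a log2 fold change of 1.52 (SE 0.125, 95% interval 1.26 to 1.78, edgeR adjusted p = 8.27e-09), the smallest of the 5 estimates.

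PARP10, a mono-ADP-ribosyltransferase with RNA recognition and ubiquitin interaction motifs, rested on few reads. It had 17 to 30 counts per library on DMSO and 52 to 106 on olaparib in UWB1.289. The levels were 4.52, 2.84, 3.51 and 3.17 CPM on DMSO (3.51 ± 0.729, SD, n = 4), and 17.5, 9.25, 11.7 and 14.9 CPM on olaparib (13.3 ± 3.61, SD, n = 4). The olaparib libraries spread widely but stayed above the DMSO libraries. The log2 fold change was 1.92 with an SE of 0.231, the largest SE of the 5 genes (95% interval 1.44 to 2.40, edgeR adjusted p = 3.66e-06).

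Next, the same comparison was made in OVCAR3, the line with intact BRCA1. None of the 5 genes was called, at a background of 2.90% of 13031 genes called higher. PARP14 and DTX3L rose by less than 2-fold with an adjusted p below 0.1, which 15.5% of genes reached in that direction. Both also had olaparib libraries that were all above the DMSO libraries, as did 12.6% of genes. The median log2 fold change of the 5 genes was 0.42 beside -0.012 over all genes tested. At an unadjusted p below 0.05, 3 of the 5 genes were higher in OVCAR3, namely PARP9, PARP14 and DTX3L, beside 17.6% of all genes tested, and DESeq2 also called none.

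In OVCAR3, PARP14 was at 242, 195, 200 and 211 CPM on DMSO (212 ± 21.1, SD, n = 4) and at 314, 264, 271 and 299 CPM on olaparib (287 ± 23.4, SD, n = 4). The gap between the highest DMSO and the lowest olaparib library was narrow. For PARP14 the log2 fold change was 0.44 (SE 0.0832, 95% interval 0.27 to 0.61, edgeR adjusted p = 0.000543). DTX3L had 297, 252, 266 and 263 CPM on DMSO (269 ± 19.2, SD, n = 4) and 366, 338, 320 and 413 CPM on olaparib (359 ± 40.6, SD, n = 4). Here, too, the groups were apart, with replicate 4 on olaparib the highest. The log2 fold change of DTX3L was 0.42 (SE 0.0835, 95% interval 0.25 to 0.59, edgeR adjusted p = 0.000917).

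For PARP9 the OVCAR3 libraries were at 83.3, 103, 95.1 and 90.9 CPM on DMSO (93.2 ± 8.40, SD, n = 4) and at 110, 104, 108 and 101 CPM on olaparib (106 ± 4.35, SD, n = 4). The groups overlapped, and the log2 fold change of 0.19 (95% interval 0.01 to 0.36) had an adjusted p of 0.111 in edgeR. This p was 0.056 to 0.296 over the alternatives and below 0.1 with the size factors of DESeq2, without replicate 4 of the olaparib group or without replicate 2 of the DMSO group. PARP12 had 6.12, 5.6, 6.08 and 1.43 CPM on DMSO and 6.22, 6.24, 5.98 and 5.89 CPM on olaparib. Replicate 4 on DMSO, with 10 counts, stood apart from the other 7 OVCAR3 libraries, and its log2 fold change of 0.35 (95% interval -0.28 to 0.99, edgeR adjusted p = 0.435) became 0.03 without that library (adjusted p = 0.932). PARP10 had 10 to 12 counts per library on DMSO and 12 to 23 on olaparib, or 1.82, 2.10, 1.45 and 1.72 CPM against 3.57, 2.34, 3.13 and 1.64 CPM. Its log2 fold change was 0.59, with a 95% interval from -0.12 to 1.31 (edgeR adjusted p = 0.228), so that at this depth neither no change nor a 2-fold increase could be separated from the estimate.

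**Figure D2:**
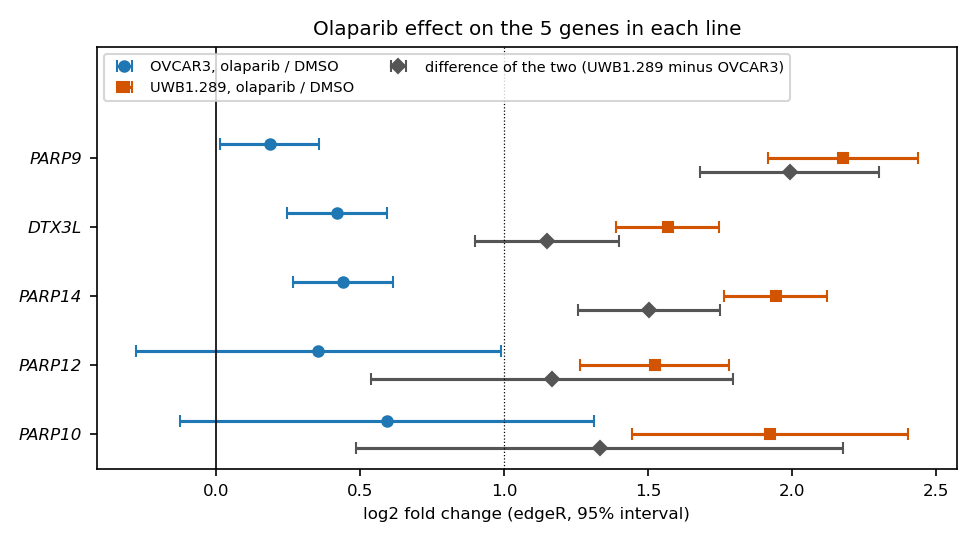
Log2 fold changes of the 5 genes with 95% intervals for olaparib against DMSO in OVCAR3 (circles) and in UWB1.289 (squares), and for the effect in UWB1.289 minus that in OVCAR3 (diamonds), with a dotted line at 2-fold. In UWB1.289 the estimates run from 1.52 to 2.17, in OVCAR3 from 0.19 to 0.59, and the differences from 1.15 to 1.99.

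The difference between the lines was tested directly as an interaction over all 16 libraries. For all 5 genes the olaparib effect was larger in UWB1.289, with differences of 1.15 to 1.99 on the log2 scale, and each was called. Over all 14243 genes, 2.0% were called in this direction, and an adjusted p below 0.1 was reached by 5.09% for a higher and 5.83% for a lower effect in UWB1.289. PARP9 had the largest difference, 1.99 (SE 0.152, 95% interval 1.68 to 2.30, edgeR adjusted p = 2.58e-10), followed by PARP14 with 1.502 (SE 0.121, edgeR adjusted p = 7.22e-10). DTX3L differed by 1.15 (SE 0.122, edgeR adjusted p = 1.18e-07). The differences of PARP10, 1.33 (SE 0.412, edgeR adjusted p = 0.0439), and PARP12, 1.16 (SE 0.307, edgeR adjusted p = 0.0156), were the least precise, and for PARP12 the value was 1.47 without the DMSO library of OVCAR3 that stood apart. The median was 1.33 beside 0.011 over all genes tested. This interaction and both olaparib comparisons use the same libraries.

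Without olaparib, 2 of the 5 genes were higher and 3 lower in UWB1.289 with an adjusted p below 0.1. Over all genes tested, 39.8% were higher and 40.1% lower, so a mixed split is not particular to these genes. On DMSO, PARP9, PARP14 and DTX3L were lower in UWB1.289 than in OVCAR3, whereas PARP12 and PARP10 were higher. The log2 differences were -2.16 for PARP9 (SE 0.106, edgeR adjusted p = 1.83e-17), -1.56 for DTX3L (SE 0.0753, edgeR adjusted p = 1.16e-17) and -1.16 for PARP14 (SE 0.0832, edgeR adjusted p = 1.60e-13), all 3 called. PARP12 was higher by 1.67 (SE 0.244, edgeR adjusted p = 4.10e-07), called, and by 1.34 without replicate 4 of the OVCAR3 DMSO group. PARP10 was higher by 0.99 (SE 0.324, edgeR adjusted p = 0.00726), just under the 2-fold threshold, and crossed it in 3 of the 8 fits that left out 1 library. In none of the 5 genes did the DMSO libraries of the lines overlap. The lines differed widely in general: of 13366 genes, 18.7% were called higher and 19.7% lower in UWB1.289, 39.8% and 40.1% had an adjusted p below 0.1, and 34.4% and 35% had groups without overlap.

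The order of the 4 groups was therefore not the same for each gene. PARP9 was lowest in UWB1.289 on DMSO and 4.44-fold higher in OVCAR3 on DMSO, and the 3 upper groups (93.2, 94.4 and 106 CPM) overlapped between neighbours. DTX3L had a similar order, with OVCAR3 on DMSO and UWB1.289 on olaparib overlapping at means of 269 and 271 CPM and OVCAR3 on olaparib above both. In PARP14 the 4 groups were separate, and UWB1.289 moved from the lowest group on DMSO to the highest on olaparib, 1.27-fold above OVCAR3 on olaparib. PARP12 was lowest in both OVCAR3 groups, which overlapped, and each UWB1.289 group was above them. For PARP10 the 3 lower groups overlapped between neighbours, and UWB1.289 on olaparib was 3.8-fold above the next. These are orders of group means within a gene, and no levels were compared between genes.

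Because PARP9 and DTX3L act as a complex and start from facing promoters, their counts were also related to each other within each library. In UWB1.289 there were 23.4, 27.4, 20.4 and 20.5 PARP9 counts per 100 DTX3L counts on DMSO (22.9 ± 3.28, SD, n = 4) and 26.8, 43.2, 35.2 and 35.5 on olaparib (35.2 ± 6.68, SD, n = 4). The groups overlapped through replicate 1 on olaparib, and the ratio was higher on olaparib in 4 of the 4 same-numbered pairs. It was 1.52-fold higher on olaparib, with p = 0.0571 in a two-sided exact permutation test and 0.114 after adjustment over the 2 lines. Taken as pairs, an exact sign-flip permutation test gave p = 0.125, the smallest it can give with 4 pairs, and 0.229 after adjustment. In OVCAR3 the values were 28.1, 41.1, 35.8 and 34.6 on DMSO (34.9 ± 5.34, SD, n = 4) and 30.1, 30.7, 33.9 and 24.3 on olaparib (29.7 ± 3.96, SD, n = 4), with a log2 difference of -0.23 (exact permutation p = 0.229, adjusted p = 0.229). Neither ratio passed the threshold of 0.1. With 4 against 4 libraries the smallest p of the unpaired test is 0.0286, and the paired test cannot reach the threshold.

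**Figure D3:**
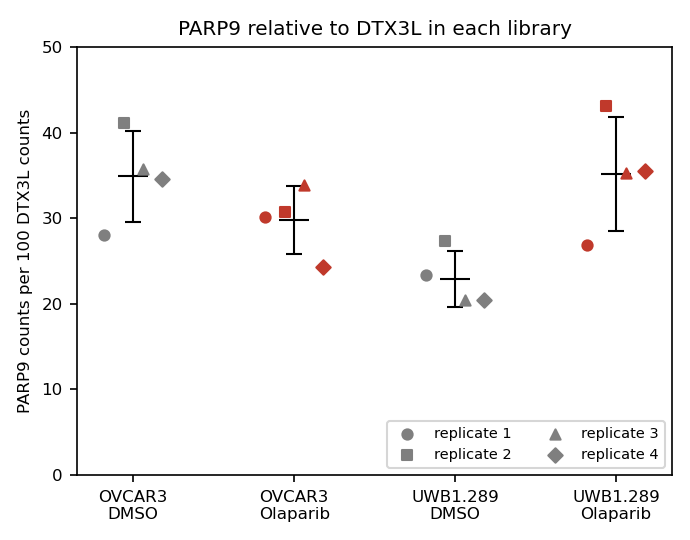
PARP9 counts per 100 DTX3L counts in each library, by cell line and treatment, with marker shape for the replicate number and black marks for the group mean and SD. UWB1.289 on DMSO has a mean of 22.9, and the other groups have means from 29.7 to 35.2 with overlapping libraries.

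PARP9, DTX3L and PARP14 lie together on chromosome 3 of GRCh38. In the GENCODE release 44 annotation PARP9 (ENSG00000138496) spans bases 122527924 to 122564577 on the minus strand, DTX3L (ENSG00000163840) 122564338 to 122575203 on the plus strand and PARP14 (ENSG00000173193) 122680839 to 122730840 on the plus strand. PARP9 and DTX3L overlap by 240 bases at their 5' ends, away from the 3' ends that the libraries sample. Within 250 kb of the 3 genes, 14 further genes were in the table. Of the 8 that were tested in UWB1.289 none had an adjusted p below 0.1, and their log2 fold changes ran from -0.50 to 0.47 with a median of 0.15. In OVCAR3, 9 were tested: KPNA1, an importin, was higher by 0.38, FAM162A, WDR5B, its divergent transcript WDR5B-DT and SEMA5B were lower (-0.46, -0.70, -0.73 and -1.13), and 4 did not pass.

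**Figure D4:**
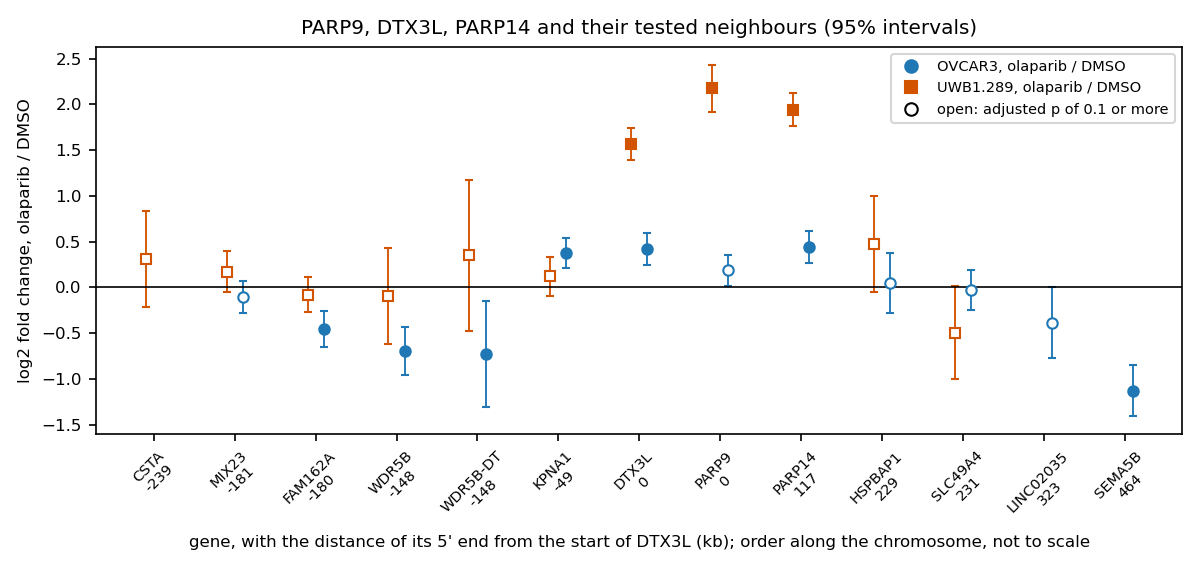
Log2 fold changes with 95% intervals for olaparib against DMSO in OVCAR3 (circles) and UWB1.289 (squares) for PARP9, DTX3L, PARP14 and the tested genes within 250 kb, in order along the chromosome with the distance from the DTX3L start in kb. Filled points have an adjusted p below 0.1. In UWB1.289 the 3 named genes lie at 1.57 to 2.17, and the 8 neighbours have intervals that include 0.

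PARP12 (ENSG00000059378) is on chromosome 7, bases 140023749 to 140062951, minus strand. Of 8 neighbours within 250 kb in the table, 4 were tested in UWB1.289 and none passed. In OVCAR3, 2 of 5 were higher, HIPK2 by 0.33 and TBXAS1 by 1.69 on the log2 scale. PARP10 (ENSG00000178685) is on chromosome 8, bases 143977153 to 144012772, minus strand. It overlaps GRINA on the opposite strand by 3360 bases, none of them at the 3' end of PARP10. GRINA lies within the span of PARP10, so the 3' end of GRINA is in the overlap. Whether reads of GRINA were counted for PARP10 was not tested. Whether the counting used strand was not given in the sources used here. GRINA itself had 20576 counts over all libraries and rose by 0.41 on the log2 scale in UWB1.289 (edgeR adjusted p = 0.00367), less than the 1.92 of PARP10. Of the 18 tested neighbours of PARP10 in UWB1.289, 1 was higher and 2 were lower, and of 16 in OVCAR3, 3 were higher and 3 lower, all by less than 2-fold.

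The 13 other PARP family genes served to show whether the family moved as a whole. In UWB1.289, 3 of the 12 tested were higher with an adjusted p below 0.1 and none was called, with a median log2 fold change of 0.16. ZC3HAV1, the zinc finger antiviral protein, rose by 0.64 (edgeR adjusted p = 1.16e-05), the tankyrase TNKS2 by 0.59 (adjusted p = 0.0179) and PARP6 by 0.40 (adjusted p = 0.0947). In OVCAR3 none of the 11 tested passed, with a median of 0.09. Here and for the lists below, 7.77% of all genes in UWB1.289 and 15.5% in OVCAR3 were higher with an adjusted p below 0.1. The olaparib targets PARP1 and PARP2 had log2 fold changes of -0.01 and -0.02 in UWB1.289 and 0.09 and 0.21 in OVCAR3, none with an adjusted p below 0.1. The interaction passed for TNKS2 (0.65) and ZC3HAV1 (0.46) and was called for none of 12. On DMSO, 6 of 12 were higher and 5 lower in UWB1.289, with 3 called in each direction. Here and for the lists below, 39.8% of all genes were higher and 40.1% lower between the lines with an adjusted p below 0.1. The shares called were 18.7% and 19.7%. PARP15 had too few counts to test in any comparison, as had PARP11 in OVCAR3.

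Interferon signaling genes were next compared. Of 9 tested in UWB1.289, 5 were higher and none lower, with a median log2 fold change of 0.55. Called were the transcription factors IRF1 (1.42) and IRF7 (1.65), and USP18 (1.499), a protease that removes ISG15 and restrains receptor signaling. STAT2 rose by 0.55 and IRF9 by 0.97, whereas the receptor chains and kinases (IFNAR1 0.17, IFNAR2 0.43, JAK1 0.18 and TYK2 -0.23) did not pass. In OVCAR3, 6 of 9 were higher with a median of 0.50 and none was called. Here JAK1 (0.50) and TYK2 (0.56) passed with IFNAR2 (0.26), IRF9 (0.55), IRF1 (0.72) and IRF7 (0.77), while USP18 was at -0.02 (95% interval -0.59 to 0.54). The interaction passed in 4 genes for a larger effect in UWB1.289, of which USP18 (1.52) was called, and in JAK1 (-0.32) and TYK2 (-0.79) for a smaller one. On DMSO, 4 genes were higher and 5 lower in UWB1.289. Among them were USP18 (1.46) and IRF9 (1.14) on the higher side and IFNAR1 (-1.42), IFNAR2 (-1.66) and IRF1 (-1.27) on the lower. SOCS1 had too few counts to test.

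Enzymes that remove ADP-ribose form the opposing arm of this chemistry. In UWB1.289, 1 of 7 was higher (ADPRS, a hydrolase, 0.49) and 1 lower (NUDT16, -0.33), where 6.10% of all genes were lower with an adjusted p below 0.1. In OVCAR3, PARG, which degrades ADP-ribose chains, was higher (0.52), and 4 of 7 were lower, beside 16% of all genes. The macrodomain hydrolases MACROD1 (-1.03) and MACROD2 (-1.58) were called lower, as were 2.33% of genes, and OARD1 (-0.47) and NUDT16 (-0.40) were lower by less. The median log2 fold change was -0.07 in UWB1.289 and -0.40 in OVCAR3. The interaction was called for MACROD1 (1.06) and MACROD2 (1.42) and also passed for ADPRS (0.60). On DMSO, 3 were higher and 2 lower in UWB1.289. Of the 3 tested relatives of DTX3L, DTX2 rose by 0.62 in UWB1.289 and DTX4 fell by 0.62 on the log2 scale in OVCAR3, with medians of 0.02 and -0.27. On DMSO, DTX3 and DTX4 were called lower in UWB1.289 (-3.54 and -3.67) and DTX2 was higher (0.67), and the interaction passed for DTX2 (0.56). DTX1 was not tested.

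**Figure D5:**
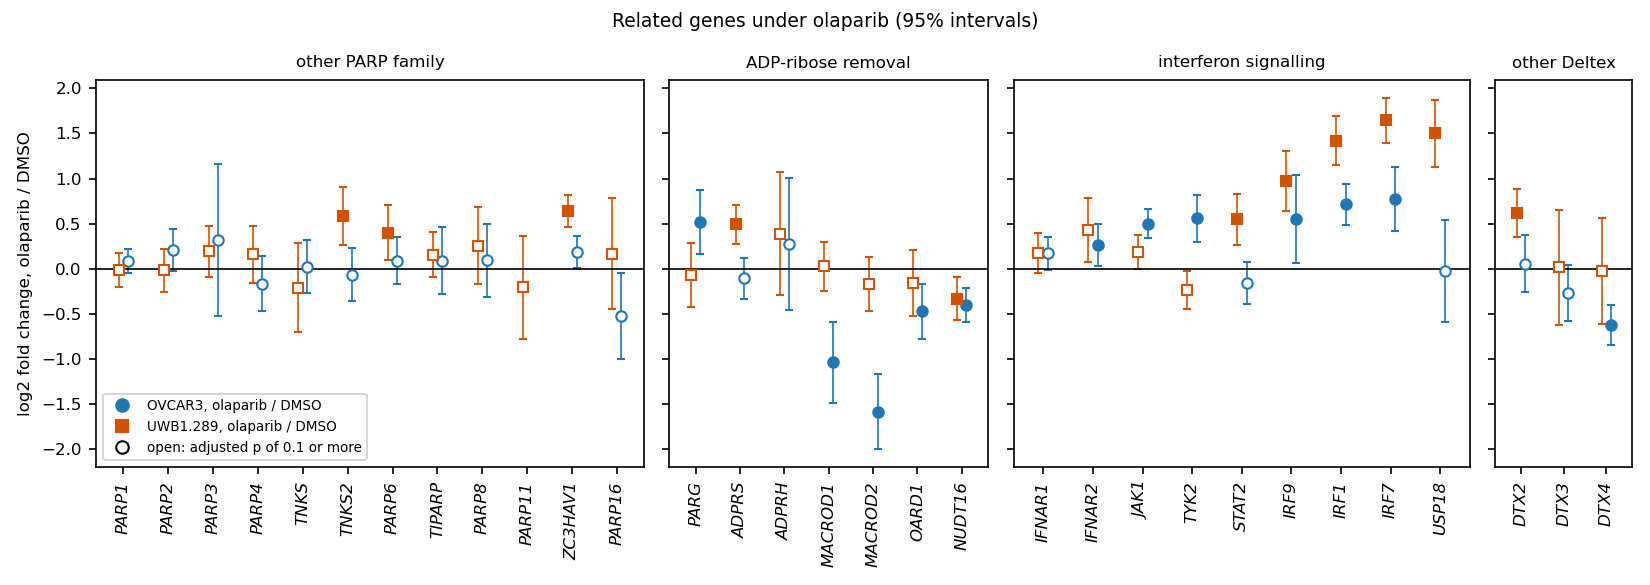
Log2 fold changes with 95% intervals for olaparib against DMSO in OVCAR3 (circles) and UWB1.289 (squares) for other PARP family genes, interferon signaling genes, enzymes of ADP-ribose removal and other Deltex genes. Filled points have an adjusted p below 0.1. The highest value in UWB1.289 is 1.65 for IRF7, and the lowest in OVCAR3 is -1.58 for MACROD2.

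The genes whose pattern over the 16 libraries was most like each of the 5 were found by the root mean square difference of log2 CPM, each gene centred on its mean, among 14243 genes. Closest to PARP9 were DTX3L (0.313), the apolipoprotein L gene APOL1 (0.383) and IRF1 (0.393). DTX3L was nearest to IRF1 (0.168), followed by the histone gene H4C5 (0.285), and had PARP9 at rank 4. PARP14 was nearest to the immunoproteasome subunit PSMB9 (0.269), IFIT5 (0.298) and DTX3L (0.326). PARP10 was most like HELZ2 (0.298), the nuclear body protein SP100 (0.360) and IFIT2 (0.367). For PARP12 the metalloprotease ADAM8 (0.474) and the transferrin receptor TFR2 (0.483) were at ranks 2 and 3, and TFR2 did not pass in UWB1.289 (0.58, edgeR adjusted p = 0.138). PARP10 stood at rank 78 of the genes most like PARP12, whereas PARP14, DTX3L and PARP9 stood at ranks 7538, 10302 and 11172. This measure covers line and treatment together and describes these libraries. The names depend on the setting. From 4 group means, 0 of the 3 nearest genes were found again for PARP9 and for PARP10. For PARP12 it was 1, and for PARP14 and DTX3L 2 each.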

How the data were processed

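The authors sequenced QuantSeq 3' mRNA libraries (Lexogen), used BBDuk to trim the single-end reads, mapped these to hg38 by STAR 2.7.9a and assigned them to genes with featureCounts 2.0.0 and GENCODE release 38. The deposited values are raw counts per gene, and all 16 libraries were used. Read strand and multi-mapping settings were not given in the sources used here.

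Genes were tested in R 4.3.3 with edgeR 4.0.16 (filterByExpr, TMM, quasi-likelihood F test, Benjamini-Hochberg adjustment over all genes tested), and intervals use its moderated residual degrees of freedom. The olaparib comparisons used the 8 libraries of a line, the comparison of lines the 8 DMSO libraries, and the interaction all 16. The PARP9 to DTX3L ratio (0.5 added to each count) was tested with SciPy 1.17.1. Scripts were tested on simulated data. DESeq2 1.42.0, other scaling, filters, thresholds, a replicate block and leaving out each library were the alternatives. The 5 genes, the lists, the neighbour rule (250 kb, symbols with 1 locus) and the likeness rule (the 3 nearest genes, prior count 2) were chosen with earlier results of these data known, and TBXAS1, HIPK2 and GRINA are named by the neighbour rule. Results for some genes under the list and likeness rules are not reported here. Of fibroblast and endothelial markers, 4 of 10 had at least 10 counts in every UWB1.289 library and 1 of 10 in OVCAR3.

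Total counts had a median of 6413980 per library, so a gene with 10 counts has a large counting error. No pair of libraries of a group was identical (24 pairs). The labels do not say whether replicates were separate cultures, so p-values measure the spread between these libraries. Same-numbered DMSO and olaparib libraries of UWB1.289 deviated together (r = 0.128 to 0.204 over 10257 genes, all 4 above 0.1). They were taken as pairs only in the replicate block and the sign-flip test, and the main edgeR fits did not use pairs. In OVCAR3 r was 0.0362 to 0.142 and not above 0.1 for all 4.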

Additional observations from a re-analysis of the deposited data

Results flagged for a closer look

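In 24 groups of 4 libraries (5 genes and the ratio in 4 groups), 1 library stood far from the others in 3, where chance gives about 1 in 20 groups. These were PARP9 in replicate 1 of UWB1.289 on olaparib (74.8 CPM, the others 101 to 102), DTX3L in replicate 2 of the same group (233 CPM, the others 279 to 286) and PARP12 in replicate 4 of OVCAR3 on DMSO (1.43 CPM, the others 5.6 to 6.12). Without them the UWB1.289 log2 fold changes were 2.27 for PARP9 and 1.63 for DTX3L, and that of PARP12 in OVCAR3 was 0.03.

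The olaparib effect differed between the lines by the interaction test in all 5 genes. UWB1.289 exceeded OVCAR3 by 1.99 in PARP9, 1.33 in PARP10, 1.16 in PARP12, 1.502 in PARP14 and 1.15 in DTX3L on the log2 scale. The lines also differed in dose (3.5 and 7.5 µM) and medium, and the part of these in the difference cannot be told apart from that of the line.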

How the results depend on the processing

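Over 26 tested results and 422 alternative values, 413 kept their direction and their call, with a count of genes taken as kept within 1.5 times, 9 were newly called or, for the ratio, newly passed, and none was lost or reversed. Part of the 413 could not have changed. Other thresholds reuse the same fit, so their direction is fixed, and the paired ratio test cannot reach its threshold. With 1 library left out, the adjusted p of the UWB1.289 ratio (exact permutation test) could not fall below 0.114. A call needs adjusted p, fold change and average count together, so the 3 alternatives that took PARP9 in OVCAR3 below an adjusted p of 0.1 (0.0998 with DESeq2 size factors, 0.056 and 0.0593 without a library) are among the 413, as are the 5 that called 5 in place of 4 genes between the lines. With no fold-change threshold, 2 of the 5 genes (PARP14 and DTX3L) were called in OVCAR3. With the 2-fold threshold kept and the libraries left out 1 at a time, none was called. In each of those fits PARP14 and DTX3L were still higher with an edgeR adjusted p below 0.1, at most 0.00517 and 0.00606. The log2 ratio difference in OVCAR3 was -0.33 to -0.13 with 1 library left out and passed only without replicate 1 on DMSO (adjusted p = 0.0571, the smallest possible with 3 against 4). PARP10 passed 2-fold between the lines with no filter on low counts (1.01), without replicate 2 (1.08) or 4 (1.05) of UWB1.289 on DMSO and without replicate 2 of OVCAR3 on DMSO (1.07), and its values with 1 library left out were 0.86 to 1.08. The adjusted p of the interaction reached 0.0937 for PARP10 and 0.0689 for PARP12 at most. With the replicate block, PARP9 in UWB1.289 was at 2.17 (SE 0.106), and the paired fits called 5, 0, 4 and 5 genes in UWB1.289, OVCAR3, between lines and in the interaction, as without it. Of the 3 genes most like each, those found again from 4 group means numbered 0 for PARP9 and PARP10, 1 for PARP12 and 2 for PARP14 and DTX3L. PARP10, with as few as 10 counts in a library, is limited by depth. PARP12 in OVCAR3 had an SE of 0.303, or 0.216 without replicate 4 on DMSO (10 counts, the others 32 to 43). The causes of the changes named here were not tested.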
